A study of Rattus norvegicus with 6 samples.

Results

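The genes described here encode proteins of the calcium store, of its junction with the cell surface or of calcium export from the cell. They are Casq1, Hrc, Trdn, Jph2, Itpr1 and Atp2b2, chosen by gene name, and all 6 were found among the 1756 genes of the table analysed. Neonatal rat ventricular cardiomyocytes (NRVCs) are ventricular heart muscle cells from Harlan Sprague–Dawley pups of 2–3 days, grown in culture. RNA sequencing compared 3 libraries of NRVCs given ARVs, a cocktail of Ritonavir, Abacavir, Atazanavir and Lamivudine at 5 µM, with 3 libraries of NRVCs given DMSO, each for 24 h. Whether each library came from its own cell preparation is not given, so the p-values reflect only how far these libraries spread, which may be technical. In whole-culture RNA, fewer cells of a type and less RNA per cell cannot be told apart.

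In a heart muscle cell, calcium is stored in the sarcoplasmic reticulum and set free through ryanodine receptors at each beat. Calsequestrin and the histidine-rich calcium protein bind calcium inside the store, triadin ties them to the release channel, and junctophilin holds the store against the cell membrane. Inositol trisphosphate (IP3) receptors form a slower release path used in signalling. SERCA pumps return calcium to the store, while exchangers and plasma membrane calcium pumps carry it out of the cell.

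Each gene has raw read counts, normalized counts (raw counts over a size factor that the authors gave each library) and FPKM, read fragments scaled by gene length and library size. The table lists only genes that had passed the authors' own test of ARVs against DMSO on these libraries, so each of the 6 genes had to differ between the groups to be present. Here raw counts were scaled by the authors' size factors and fitted with edgeR, with Benjamini-Hochberg adjustment over the 1751 genes that passed a filter on low counts, as all 6 genes did. Every gene tested passed an adjusted p of 0.05 (100%), 1052 in the lower direction (60.1%) and 699 in the higher direction (39.9%). That all 6 genes were lower and passed is therefore read as a description only, and the fits give the size and spread of each change. Listed genes took 4329218 to 5871352 counts per library. Among the DMSO libraries, replicate 2 differed most from the rest: chi-square divided by its degrees of freedom was 29.3 and 32.0 for its pairs and 5.54 for replicates 1 and 3.

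Atp2b2 and Casq1 were much lower with ARVs, and Hrc, Itpr1, Jph2 and Trdn were lower by less. Mean normalized counts fell by 80.6% for Atp2b2 and by 48.8% for Casq1. For Itpr1 and Hrc they were lower by 21.6% and 21.1%, and for Jph2 and Trdn by 14.8% and 14.1%. The median log2 fold change of the 6 genes was -0.35, beside -0.25 over all genes tested. Of the 6, 4 had a change smaller in size than the median size over all tested genes, which was 0.39.

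The promoters of Casq1 and Atp2b2 are shown because the changes of these genes were the largest of the 6. Each line gives the 250 bases before the gene's start, 5′ to 3′ on the gene's strand, from RefSeq on build GRCr8, at chr13:87212711-87212960 (minus strand) for Casq1 and chr4:148763654-148763903 (minus strand) for Atp2b2. Capitals mark an E-box (CANNTG), a GC box (GGGCGG) or the core of the xenobiotic response element (GCGTG), on either strand.
Casq1: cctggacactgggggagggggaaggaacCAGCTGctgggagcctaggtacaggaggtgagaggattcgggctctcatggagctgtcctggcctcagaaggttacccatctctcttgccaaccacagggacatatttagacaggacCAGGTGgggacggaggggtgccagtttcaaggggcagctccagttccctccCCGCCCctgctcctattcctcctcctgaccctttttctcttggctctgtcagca
Atp2b2: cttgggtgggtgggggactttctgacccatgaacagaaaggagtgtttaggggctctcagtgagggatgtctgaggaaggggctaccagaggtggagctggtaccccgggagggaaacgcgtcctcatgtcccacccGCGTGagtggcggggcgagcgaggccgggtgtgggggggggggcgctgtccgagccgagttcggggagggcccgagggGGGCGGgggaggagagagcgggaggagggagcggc
The Casq1 stretch has 2 E-boxes and 1 GC box, and the Atp2b2 stretch has 1 xenobiotic response core and 1 GC box. Which start these cells use was not measured.

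All 6 genes were matched to a promoter by symbol, as were 1308 of the listed genes. The stretch before Itpr1 has 1 E-box, and none of these 3 motifs is in those of Hrc, Trdn or Jph2. An E-box is present in 57.4% of the promoters of listed genes and in 65.2% of 27457 RefSeq promoters. The shares are 61.2% and 32.4% for the GC box and 44.3% and 27.2% for the xenobiotic response core. Other motifs were searched on both strands too. The core promoter box was searched as TATAAA, the site of the GATA family of cardiac factors as AGATAA, the muscle element MCAT of the TEAD family as CATTCC and the common motif of nuclear receptors as AGGTCA. None of them has a match to these exact letters in any of the 6 stretches. Looser forms, such as the TATATAAG before Itpr1, were not counted. Their shares by exact letters among listed genes run from 5.43% for GATA to 10.6% for MCAT, against 10% and 11.8% of all promoters. By base composition the stretches differ widely, from 44% G and C at Trdn, the 4.28th percentile of the listed genes, to 69.2% at Atp2b2, the 82.3rd percentile. A match of letters is a description of the sequence and not evidence that a factor binds there.

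Casq1 encodes calsequestrin 1, the store's calcium-binding protein best known from fast skeletal muscle. The table places it on chromosome 13 from 90592681 to 90602365 (minus strand, release 97, ENSRNOG00000006930). It had 13711.5, 12750.1 and 12622 normalized counts in replicates 1 to 3 given DMSO and 6865, 6134 and 7020.1 in those given ARVs. Every ARVs library lay far below every DMSO library, with a gap of 43.0% of the DMSO mean between the nearest libraries. The mean went from 13028 ± 596 to 6673 ± 473 normalized counts (SD, n = 3 each). By edgeR this was a log2 fold change of -0.97 (SE 0.06) with an adjusted p = 2.6e-05. Of all genes tested, 8.51% had a log2 fold change this low or lower. Casq2, the cardiac calsequestrin, is not in the table and was not analysed here.

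Hrc encodes the histidine-rich calcium protein, which binds calcium in the store and also binds triadin. It lies on chromosome 1 from 101324652 to 101328435 (plus strand, release 97, ENSRNOG00000020719). Its normalized counts were 759.9, 701 and 827 in replicates 1 to 3 given DMSO and 652, 560.2 and 592 in those given ARVs. The groups did not overlap, but DMSO replicate 2 and ARVs replicate 1 were close, with a gap of 6.42% of the DMSO mean. Its fitted log2 change was -0.34 (SE 0.09; edgeR, adjusted p = 0.0051).

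Trdn encodes triadin, the membrane protein that links calsequestrin to the ryanodine receptor. The gene spans chromosome 1 from 25403390 to 25839345 (minus strand, release 97, ENSRNOG00000012609). Normalized counts were 1809, 1669 and 1844 in replicates 1 to 3 given DMSO and 1565, 1393 and 1615 in those given ARVs. The nearest libraries of the groups were 3.04% of the DMSO mean apart. The fitted log2 change was -0.22 (SE 0.07; edgeR, adjusted p = 0.013). Without ARVs replicate 2, the lowest library, it was -0.16 and did not pass (adjusted p = 0.0515 from edgeR).

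Jph2 encodes junctophilin 2, which bridges the store and the membrane of the transverse tubule in heart muscle. It is on chromosome 3 from 159712325 to 159775643 (minus strand, release 97, ENSRNOG00000008170). It had 9864, 8002 and 9372.5 normalized counts in replicates 1 to 3 given DMSO and 7836, 7388 and 7986 in those given ARVs. DMSO replicate 2 was nearly level with ARVs replicate 3, with a gap of only 0.174% of the DMSO mean. The fitted log2 change was -0.23 (SE 0.08; edgeR, adjusted p = 0.017). It did not pass without DMSO replicate 1 (-0.17, adjusted p = 0.068 from edgeR) or without ARVs replicate 2 (-0.20, adjusted p = 0.067 from edgeR).

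Itpr1 encodes the type 1 IP3 receptor, a calcium release channel found in many cell types, smooth muscle included. Its span is chromosome 4 from 140247313 to 140580748 (plus strand, release 97, ENSRNOG00000007104). Normalized counts were 1568, 1231 and 1423 in replicates 1 to 3 given DMSO and 1058, 1145 and 1105.5 in those given ARVs. The ARVs libraries were close together and the DMSO libraries spread out, with coefficients of variation of 3.94% and 12%. The fitted log2 change was -0.35 (SE 0.09; edgeR, adjusted p = 0.0053), and over fits that left out 1 library it ran from -0.44 to -0.27. Of the smooth muscle and pericyte marker list, the table holds 7 of 10 genes, each of them lower (background 60.1%), 6 of them also with TMM and with median-ratio factors, 2 other scalings of the libraries. Their summed level was 4200 to 4900 FPKM in the DMSO libraries and 3010 to 3410 in the ARVs libraries. Most of that sum was Acta2, at 2970 FPKM with DMSO and 2140 with ARVs, and Tagln, at 1270 and 870. Myh11, at 12.9 and 6.4 FPKM, and Rgs5, at 6.3 and 2.65, were the lowest. The sum is thus not a measure of how many such cells were present. The part of smooth muscle cells and pericytes in the change of Itpr1 was not tested.

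Atp2b2 encodes a calcium pump of the plasma membrane, PMCA2, known from hair cells, neurons and the mammary gland. It lies on chromosome 4 from 145703046 to 146016325 (minus strand, release 97, ENSRNOG00000030269). Raw counts were 102, 87 and 106 in replicates 1 to 3 given DMSO and 21, 17 and 17 in those given ARVs. The counts are small but well apart: the exact 95% Poisson intervals, which cover counting error only, run from 69.7 to 107 for the lowest DMSO library and from 13.0 to 32.1 for the highest ARVs library. Normalized counts were 92.1, 83.9 and 114 with DMSO and 21.7, 15.4 and 19.1 with ARVs. The mean went from 96.7 ± 15.7 to 18.7 ± 3.15 (SD, n = 3 each). By edgeR this was a log2 fold change of -2.37 (SE 0.23) with an adjusted p = 1.1e-04. Only 0.343% of the genes tested had a change this low or lower, 6 genes with Atp2b2 itself. On build GRCr8, 3 long noncoding RNA genes share its span, as 1 does with Itpr1 and a pseudogene with Trdn. Strand-specific counting is not stated, so reads of such neighbours cannot be told apart.

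**Figure D1:**
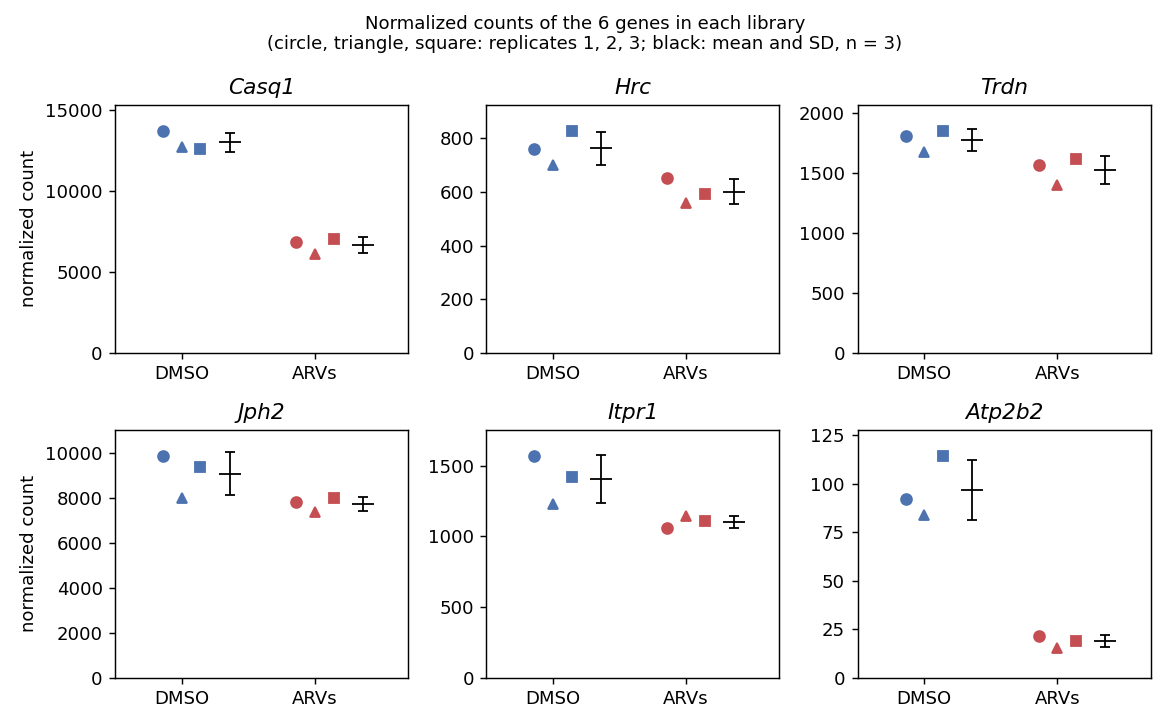
Normalized counts (y axis, from 0) of each gene in the 3 DMSO and 3 ARVs libraries; markers show the replicate, and the black bar shows the mean and SD. The groups lie far apart for Casq1 and Atp2b2, and nearly touch for Jph2, where DMSO replicate 2 has 8002 normalized counts and ARVs replicate 3 has 7986.

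All 6 genes had every ARVs library below every DMSO library, which held for 56.7% of the listed genes. The reverse held for 39.2%, so that the groups were apart for 95.9% of them in all. An exact permutation test of 1 gene over 3 against 3 libraries cannot go below p = 0.1. Groups that do not overlap always give that value, so for each of the 6 it only restates the separation. In 5 of the 6 genes DMSO replicate 2 was the lowest DMSO library, Casq1 being the exception. Without that library all 6 genes were still lower and passed edgeR's test, beside 1050 genes lower and 701 higher over all genes tested. Passing this fit is therefore not particular to the 6 genes.

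The smaller changes depended on how the libraries were scaled. TMM over the listed genes moved all log2 fold changes up by a median of 0.095, and median-ratio factors over the listed genes by 0.20. Both methods take most genes as unchanged, which cannot hold over genes that were listed because they changed. Casq1 was at -0.87 and -0.77 under these scalings and Atp2b2 at -2.27 and -2.16, and both still passed. Trdn was at -0.12 with TMM (adjusted p = 0.097 from edgeR) and -0.02 with median-ratio factors, and Jph2 at -0.14 (adjusted p = 0.105 from edgeR) and -0.03. Hrc and Itpr1 passed with TMM, at -0.25 and -0.26, and did not pass with median-ratio factors, at -0.14 and -0.15 (adjusted p = 0.14 and 0.114 from edgeR). In all, 4 of the 6 genes were called with TMM, beside 90.3% of all genes tested, and 2 with median-ratio factors, beside 70.5%. At an adjusted p of 0.01 with the authors' size factors, 4 were called, beside 89% of all genes tested (53.2% lower and 35.8% higher). Over all genes tested, 50.4% and 30.6% were lower under these scalings, and higher genes made up 44.2% and 56.6% of the calls, against 39.9% with the authors' size factors.

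**Figure D2:**
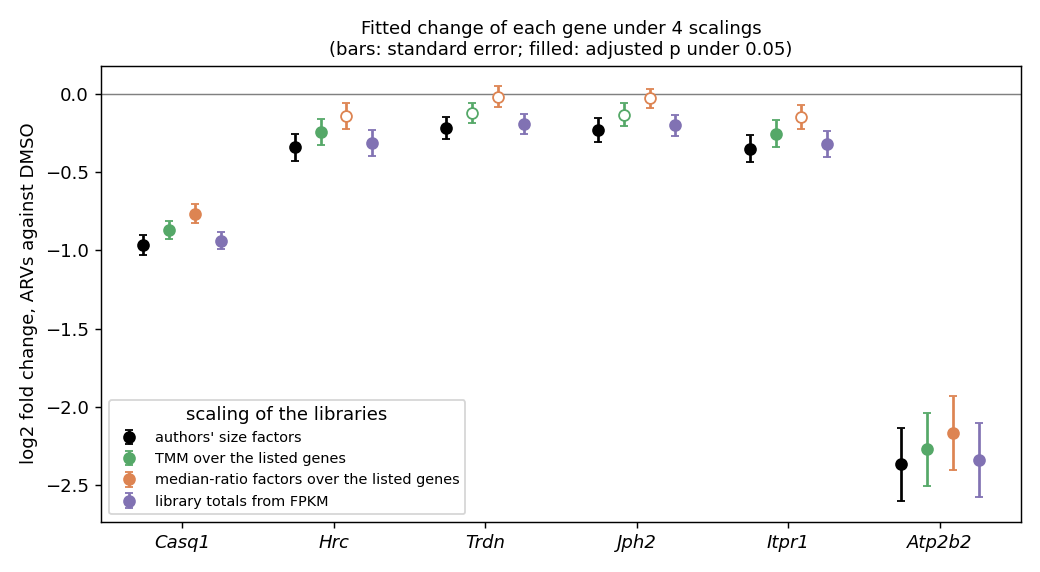
Fitted log2 fold change of ARVs against DMSO (y axis) with its standard error for each gene under 4 scalings of the libraries; filled points passed an adjusted p of 0.05. Casq1 stays between -0.97 and -0.77 and Atp2b2 between -2.37 and -2.16, while Trdn and Jph2 come close to 0 with median-ratio factors.

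Ratios of raw counts within a library need no scaling, and by them Casq1 and Atp2b2 moved away from the other genes. The log2 ratio of Casq1 to Jph2 was 0.475, 0.672 and 0.429 in replicates 1 to 3 given DMSO and -0.191, -0.268 and -0.186 in those given ARVs. Jph2 thus had fewer reads than Casq1 in each DMSO library and more in each ARVs library. Against Trdn, its partner at the release channel, Casq1 went from a log2 ratio of 2.88 ± 0.09 to 2.13 ± 0.01 (SD, n = 3 each), a difference of -0.75. Against Hrc and Itpr1 the differences were -0.62 each.

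Atp2b2 fell relative to each of the other 5 genes. The log2 ratio of Jph2 to Atp2b2 was 6.55 ± 0.19 with DMSO and 8.66 ± 0.20 with ARVs (SD, n = 3 each). Casq1, the other strongly lowered gene, still gained on Atp2b2 by 1.37 on the log2 scale, with no overlap between the groups. The differences of Hrc, Trdn, Jph2 and Itpr1 to Atp2b2 lay between 1.99 and 2.12.

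Hrc, Trdn, Jph2 and Itpr1 kept closer ratios to one another. Trdn to Jph2 had a log2 ratio of -2.35 ± 0.09 with DMSO and -2.35 ± 0.05 with ARVs (SD, n = 3 each), a difference of 0.01. Hrc to Itpr1 differed by less than 0.01 between the groups, at -0.88 ± 0.14 and -0.88 ± 0.17. The other 4 pairs among these genes differed by 0.12 in size, and only Hrc to Trdn had groups that did not overlap. Over the 15 pairs compared, 10 had groups that did not overlap, each at the smallest exact permutation p of 0.1 (two-sided, adjusted p = 0.15 over the pairs). All of these but Hrc to Trdn hold Casq1 or Atp2b2, the genes with the largest fitted changes, so the count restates those changes. The share over pairs of other listed genes was not computed. The other 5 had an exact permutation p from 0.2 to 1, which does not show that their ratios were equal.

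**Figure D3:**
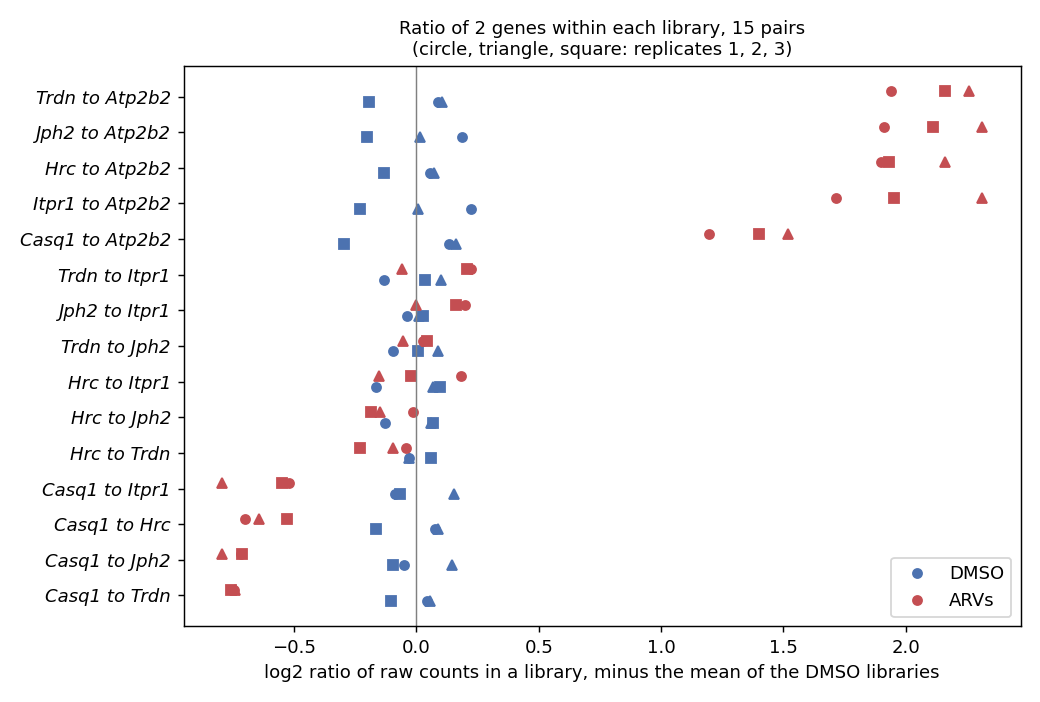
Log2 ratio of the raw counts of 2 genes in each library, minus the mean of the DMSO libraries (x axis), for the 15 pairs (y axis). Pairs with Atp2b2 lie 1.37 to 2.12 above the DMSO mean, pairs of Casq1 with the other 4 genes lie at -0.75 to -0.62 on average, and the rest lie at -0.12 to 0.12.

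Per length, the genes differed widely in level. Mean levels with DMSO were 358.5 ± 12.7 FPKM for Casq1, 216 ± 20.3 for Jph2, 42.2 ± 1.82 for Trdn, 15.2 ± 1.17 for Hrc, 7.81 ± 0.83 for Itpr1 and 0.611 ± 0.098 for Atp2b2 (SD, n = 3 each). With ARVs, Casq1 and Jph2 were level, at 187 ± 11.2 and 188 ± 5.43 FPKM. The other genes kept their order, at 36.9 ± 2.41 for Trdn, 12.2 ± 0.88 for Hrc, 6.25 ± 0.30 for Itpr1 and 0.121 ± 0.019 for Atp2b2.

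Casq1 and Jph2 were thus the only neighbours in this order whose libraries overlapped, and only with ARVs. The ratio of their FPKM was 1.60, 1.84 and 1.55 in replicates 1 to 3 given DMSO and 1.01, 0.958 and 1.01 in those given ARVs. The FPKM of Trdn corresponds to a length of 2135 bases, while the table's length column gives 4602. With that column its level would be 19.6 FPKM with DMSO and 17.1 with ARVs, and the order of the genes by mean level would be unchanged.

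**Figure D4:**
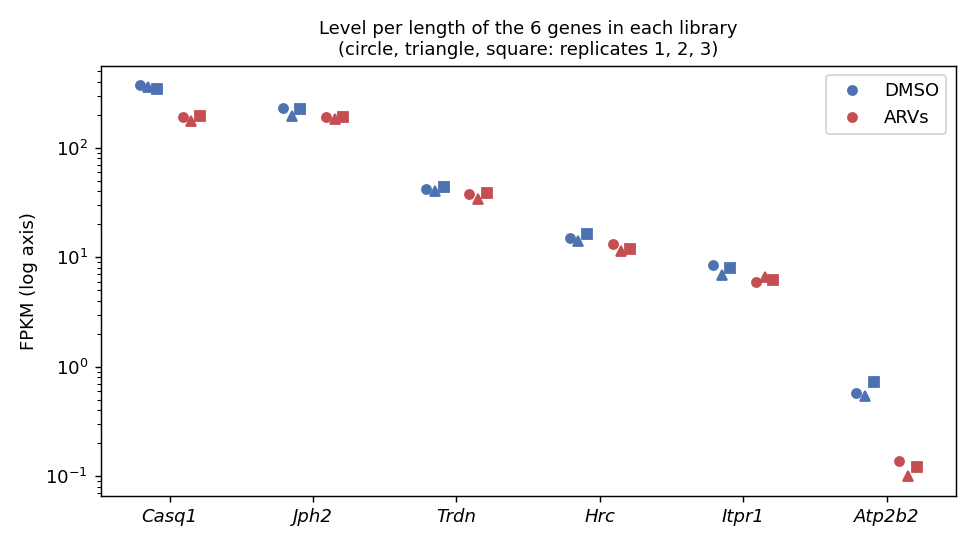
FPKM of each gene (y axis, log scale) in the 3 DMSO and 3 ARVs libraries, with genes ordered by their mean with DMSO. Casq1 lies above Jph2 with DMSO and level with it with ARVs, and Atp2b2 lies below 1 FPKM in all libraries.

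Other genes of calcium handling went both ways. Of 105 further genes on 8 lists, 23 were in the table, 15 lower and 8 higher, with a median log2 fold change of -0.25, the same as over all genes tested. This split is near that of all genes tested, of which 60.1% were lower. With median-ratio factors 6 were lower (Srl, Atp2a2, Atp2b4, Slc24a3, Cacna1s and Mylk) and the same 8 were higher. Over all genes tested, 30.6% were lower and 39.9% higher with these factors, so this shift too is that of the whole table. Genes of the lists that are not in the table were not analysed here.

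Among the store, release and junction genes, the store protein gene Srl (sarcalumenin) changed by -0.38 on the log2 scale (SE 0.05) and Sypl2, the triad protein mitsugumin 29, by -0.28 (SE 0.06). Bin1, which shapes transverse tubules, was higher by 0.35 (SE 0.09), and the scaffold gene Homer3 by 0.29 (SE 0.07). Of the 6 release and junction genes in the table, 4 were lower and 2 higher, so they did not share a direction. With median-ratio factors the 2 higher genes still passed and none passed as lower. Sypl2 was then at -0.08 (adjusted p = 0.4 from edgeR).

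The reuptake pump and its inhibitor moved in opposite directions. Atp2a2, which encodes the SERCA2 pump, had 84095, 66108 and 83265 normalized counts in replicates 1 to 3 given DMSO and 58358, 54147 and 61211 in those given ARVs. Its fitted log2 change was -0.43 (SE 0.09; edgeR, adjusted p = 0.0034). Pln, which encodes the SERCA inhibitor phospholamban, had 29797, 28934 and 30451 normalized counts with DMSO and 38796, 36177 and 40939.8 with ARVs. Its fitted log2 change was 0.38 (SE 0.05; edgeR, adjusted p = 6.1e-04). All ARVs libraries lay below all DMSO libraries for Atp2a2 and above them for Pln. The log2 ratio of Pln to Atp2a2 within a library went from -1.38 ± 0.16 to -0.58 ± 0.005 (SD, n = 3 each). Because both genes had groups apart, in opposite directions, the groups of the ratio had to be apart too. Its exact permutation p of 0.1, the smallest possible, was thus fixed beforehand, and the ratio restates the changes of these genes.

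Of the 9 export genes sought, the table holds only 3: Atp2b2, Atp2b4 and Slc24a3. All 3 were lower, as were 60.1% of all genes tested. Atp2b4, another plasma membrane calcium pump, was lower by -0.61 (SE 0.11), and Slc24a3, a sodium, potassium and calcium exchanger, by -0.68 (SE 0.18). Atp2b4 was at 7.27 FPKM with DMSO, well above Atp2b2 at 0.611. Voltage-gated channel genes were split. Cacna1s, the L-type channel best known from skeletal muscle, was lower by -0.98 (SE 0.27). Its groups lay close, with 246 normalized counts in DMSO replicate 2 and 235.3 in ARVs replicate 1. The T-type gene Cacna1g was higher by 0.59 (SE 0.10), as was the N-type gene Cacna1b by 0.61 (SE 0.13). Of 10 skeletal muscle markers, Myh1 was the only one in the table, at 0.743 to 1.90 FPKM with DMSO and 0.388 to 0.607 with ARVs.

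In store-operated entry, Saraf, which damps this entry, was higher by 0.45 (SE 0.04). Of 12 mitochondrial transport genes sought, the table holds 4, with 3 lower (background 60.1%) and 1 higher. Letm1, Vdac1 and Vdac2 were lower by -0.22 to -0.29, though none of them with median-ratio factors. Slc8b1, the sodium and calcium exchanger of mitochondria, was higher by 0.43 (SE 0.10). Of 17 genes of calmodulin and its effectors, the table holds 6. Of these, 5 were lower (background 60.1%), 1 of them also with median-ratio factors. Among them were Calm2, Chp1, Rcan2 and the smooth muscle kinase gene Mylk, also on the smooth muscle list, which had the largest fall at -0.76 (SE 0.06). Mylk3, the cardiac kinase of the myosin light chain, was higher by 0.25 (SE 0.07). With the authors' size factors, the changes named in this and the foregoing paragraphs all passed edgeR's test, as did 100% of the genes tested.

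**Figure D5:**
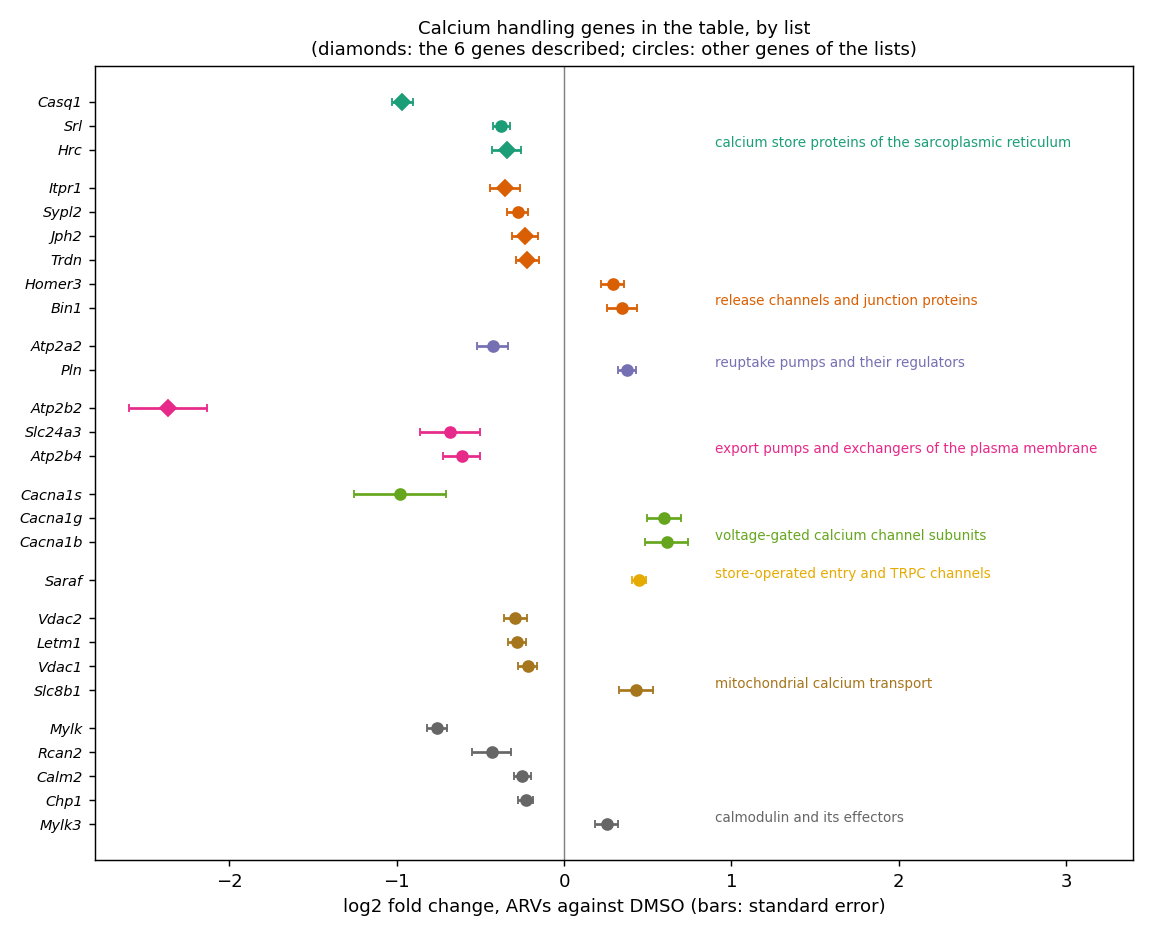
Log2 fold change of ARVs against DMSO with its standard error (x axis) for the calcium handling genes reported (y axis), grouped by list. Diamonds are the 6 genes described, all below 0, and circles are 21 other genes, 13 below and 8 above 0.

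The cell type markers give the setting of these values. Of 14 ventricular cardiomyocyte markers, 6 were in the table, with Myl3 at 3800 FPKM and Tnnc1 at 2310 FPKM with DMSO. These 6 summed to 8760 to 8920 FPKM in the DMSO libraries and 7810 to 8050 in the ARVs libraries, 4 of them lower (2 under the other scalings) and 2 higher. Myh6, the fast myosin heavy chain, was lower by -0.88 (SE 0.12), and Myh7, the slow one, higher by 0.51 (SE 0.05). Markers of other cells were present too: 5 of 10 fibroblast markers summed to 1150 to 1210 FPKM with DMSO and 979 to 1040 with ARVs. Most of that sum was Col3a1, at 986 FPKM with DMSO and 818 with ARVs, and of the 5 genes 3 were lower (1 with median-ratio factors) and 2, Tcf21 and Ddr2, were higher. In the table were 1 of 8 endothelial markers, 2 of 8 macrophage markers and 1 of 10 markers of neurons and Schwann cells. All of these were higher (background 39.9%). All 10 mitosis genes were lower (background 60.1%), their sum going from 262 to 286 FPKM with DMSO to 136 to 154 with ARVs. The part of any of these cells in the changes of the 6 genes was not tested.

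The genes whose profile over the 6 libraries was nearest to each of the 6 genes came from many functions. Likeness was the root mean square difference of log2(normalized count + 1), each gene taken relative to its DMSO mean, among 1712 genes averaging 50 normalized counts or more. Jph2 had the closest neighbours, Ppp1r12b (0.018), a subunit of myosin phosphatase, and Itga7 (0.024), a laminin-binding integrin of muscle. Itpr1 was nearest to Errfi1 (0.032) and Nav2 (0.040), Hrc to B3galnt2 (0.039) and Pnpt1 (0.040), and Trdn to Smarcd3 (0.040) and Etfb (0.042). Casq1 was nearest to the mitotic kinesin gene Kif11 (0.054) and to Necab3 (0.068). Atp2b2 had no close neighbour: its nearest were Hr (0.221), a corepressor of nuclear receptors with a log2 fold change of -2.38, and Abcb9 (0.374), a lysosomal peptide transporter. With 17 to 21 raw counts per ARVs library, counting error adds to the distances of Atp2b2, and its part in them was not tested.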

How the data were processed

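RNA from NRVCs treated with ARVs or DMSO was sequenced, 3 libraries per group. Per the study's methods, the authors aligned reads by HISAT2 (rat reference, release 97) and used StringTie 1.3.3b for transcripts; the program that counted reads is not given in the sources used here. The deposited table gives raw counts, a signal (the authors' count divided by 1 size factor per library) and FPKM, by the authors, for 1756 genes. It also holds the authors' log2 fold change and p-value of their own comparison, used nowhere here. FPKM correspond to 17347680 to 22126119 counts per library, and for 499 genes, 3 of the 6 among them, to a length other than the table's.

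Counts were tested with edgeR 4.0.16 in R 4.3.3 (filterByExpr, which removed 5 genes; glmQLFit and glmQLFTest), with the size factors that raw and normalized counts imply. On simulated counts it recovered 79% of 200 changes of 0.5 and 97% of changes of 1 on the log2 scale among 1756 genes. Of the calls, 6.51% and 4.9% were false. The other genes were simulated as unchanged and the size factors were known, which differs from the listed genes, so these shares need not hold for them. Within-library ratios used a pseudocount of 0.5. Alternatives were TMM, median-ratio factors, totals from FPKM, DESeq2 1.42.0, an adjusted p of 0.01, no filter, a minimum of 10 counts per library, a replicate block and leaving out each library. Of calcium handling lists, members in the table are named, apart from 2 that are counted but not reported by name here, and for each of the 6 genes the 2 with the nearest profile. The genes and lists were chosen with earlier results of these data known. Promoters come from RefSeq (GRCr8).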

Additional observations from a re-analysis of the deposited data

How the results depend on the processing

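Casq1 and Atp2b2 were lower and passed under all 14 alternatives run, at log2 fold changes from -1.003 to -0.77 and from -2.49 to -2.16. All 6 genes kept their direction in every alternative. With TMM, Trdn (-0.12) and Jph2 (-0.14) did not pass, nor did they at an adjusted p of 0.01 (-0.22 and -0.23, adjusted p = 0.013 and 0.017 from edgeR). With median-ratio factors, Hrc (-0.14), Trdn (-0.019), Jph2 (-0.029) and Itpr1 (-0.15) did not pass, and the counts of lower genes went from 6 to 2 of the 6 genes, from 15 to 6 of the other calcium handling genes and from 1052 to 536 of all genes. By construction, these factors centre the listed genes nearer to 0. Leaving out 1 library each gave log2 fold changes of -0.315 to -0.17 for Jph2 and -0.26 to -0.16 for Trdn. Of 35 other genes (list members and nearest profiles), 16 did not pass with median-ratio factors, 4 with TMM, 1 at an adjusted p of 0.01 and 1 in each of 4 fits that left out a library. With the length column in place of the lengths behind FPKM, a choice made after seeing the data, Trdn had 19.6 FPKM with DMSO and 17.1 with ARVs and Itpr1 5.75 with ARVs.

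Labels share replicate numbers between groups, but whether these mark pairs is not given, so the numbers were not taken as pairs. Deviations of libraries with the same number correlated across genes at -0.01, 0.24 and 0.07. Those of DMSO replicate 1 and ARVs replicate 3 correlated at 0.24. Among the 6 genes, replicate 2 was the lowest library of both groups for Hrc, Trdn, Jph2 and Atp2b2, but not for Casq1 or Itpr1. A fit with the replicate number as a block called 1751 genes and left all 6 genes lower, at -0.97 for Casq1, -0.34 for Hrc, -0.22 for Trdn, -0.23 for Jph2, -0.35 for Itpr1 and -2.36 for Atp2b2. With the block, the adjusted p from edgeR was 0.0039 for Trdn and 0.0046 for Jph2, against 0.013 and 0.017 without it. Depth limits Atp2b2 most, with 17 to 21 raw counts per ARVs library.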
